A study of Mus musculus with 12 samples.

Results

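TRAV13 alpha chains are T cell receptor alpha chains whose variable segment comes from one of the TRAV13 genes of mouse chromosome 14. They were taken from a table of assembled receptor contigs as every productive TRA contig of a called cell with a TRAV13, TRAV13D or TRAV13N gene, leaving out the gene that is also named as a delta chain segment (TRAV13-4-DV7). Each V gene and CDR3 nucleotide sequence was counted once per library. This gave 555 of 9383 distinct TRA rearrangements, in 601 of the 8974 cells with a TRA, from 8 gene copies of the 77 TRAV genes seen.

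The study profiled CD45+ immune cells of mammary tumours in Balb/c mice, by single-cell expression and T cell receptor libraries. The labels give cyclophosphamide together with pexidartinib over 3 weeks as the treatment and mark each sample Treated or Untreated, with no dose, age, tumour line or mouse. Of the 6 receptor libraries used, CTX, CTX2, CSF1R and Combined were tied to Treated records and PBS1 to an Untreated one. PBS2 was tied to a Treated receptor record and an Untreated expression record, and was kept out of the treatment comparison. CSF1R was tied by a number that begins the titles of 2 Treated expression records, and PBS1 also only through an expression record. The labels do not define the library names or say which agent a library received. No label names the mouse behind a library, and the p-values here therefore speak only of these libraries and not of mice. For differences within libraries they speak of how steadily a difference held from library to library. What differs between libraries may be technical.

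An alpha chain gene is assembled in the thymus by joining one TRAV segment to one TRAJ segment. The locus can rearrange again, each time bringing a V segment farther upstream to a J segment farther downstream, and both alleles can rearrange. The junction codes for CDR3, the loop that touches the peptide, while the V segment codes for CDR1 and CDR2. The mouse TRAV region holds repeated blocks, so many TRAV families have copies marked D or N beside copies with no letter, and inbred strains differ in how many copies they carry. Gene names in the table therefore rest on the reference used and not on the BALB/c genome itself.

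The CDR3 nucleotide sequences of the rearrangements that the results on clones and copies turn on are shown here, read 5′ to 3′ from the deposited contigs, with codons 3 and 4 of the CDR3 in capitals, since the most common openings of the copies differ there. The first 3 are from CTX, the third taken from 3 tied at 2 cells by its UMIs, the next ones lead Combined and PBS1, and the last was found in both CTX2 and Combined.
TRAV13D-2 with TRAJ40 in CTX: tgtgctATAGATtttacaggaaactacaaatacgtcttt
TRAV13D-2 with TRAJ42 in CTX: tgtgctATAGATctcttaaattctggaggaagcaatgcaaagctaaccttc
TRAV13D-2 with TRAJ30 in CTX: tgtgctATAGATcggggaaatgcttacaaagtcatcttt
TRAV13-1 with TRAJ57 in Combined: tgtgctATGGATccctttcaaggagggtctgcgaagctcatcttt
TRAV13-2 with TRAJ21 in PBS1: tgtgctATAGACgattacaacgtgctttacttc
TRAV13-1 with TRAJ22 in CTX2 and Combined: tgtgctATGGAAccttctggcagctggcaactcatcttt

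TRAV13 was a middle-sized family, with a share of rearrangements between 4.21% and 8.28%. It made up 7.64% of distinct TRA rearrangements in CTX (32 of 419), 5.79% in CTX2 (30 of 518), 6.18% in CSF1R (53 of 857) and 5.84% in Combined (411 of 7040). The share was 4.21% in PBS2 (17 of 404) and 8.28% in PBS1 (12 of 145). PBS1 was highest and PBS2 lowest, and the exact 95% interval of PBS1, 4.35 to 14.0%, covered the shares of all treated libraries. The mean over the 6 libraries was 6.32% ± 1.45 (SD), the fifth of 20 TRAV families by mean share, with TRAV4 next below it at 6.16% ± 1.72. The treated libraries averaged 6.36% ± 0.87 (SD, n = 4) against 8.28% in PBS1 (n = 1), a difference of -1.91 points (two-sided exact permutation p = 0.2, the smallest possible with 4 libraries against 1). Counting PBS2 as untreated turned the difference to 0.121 points (two-sided exact permutation p = 1, smallest possible 0.0667), so no direction can be read from the comparison.

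Counted by cells, the libraries lay farther apart. TRAV13 was found in 13.7% of CTX cells with a TRA (69 of 504), 2.97% in CTX2 (31 of 1044), 6.81% in CSF1R (52 of 764) and 6.87% in Combined (417 of 6070). In PBS2 it was 4.21% (17 of 404) and in PBS1 7.98% (15 of 188). CTX was highest and CTX2 lowest, with exact intervals of 10.8 to 17.0% and 2.03 to 4.19%. These intervals treat each cell as independent, which cells of one clone are not, so they do not test the 2 libraries against each other. In CTX 37 of the 69 TRAV13 cells, 53.6%, belonged to the first 2 rearrangements shown above. Without those cells the share was 6.85% (32 of 467). No clone was taken out of CTX2, where 119 cells carried one beta chain.

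**Figure D1:**
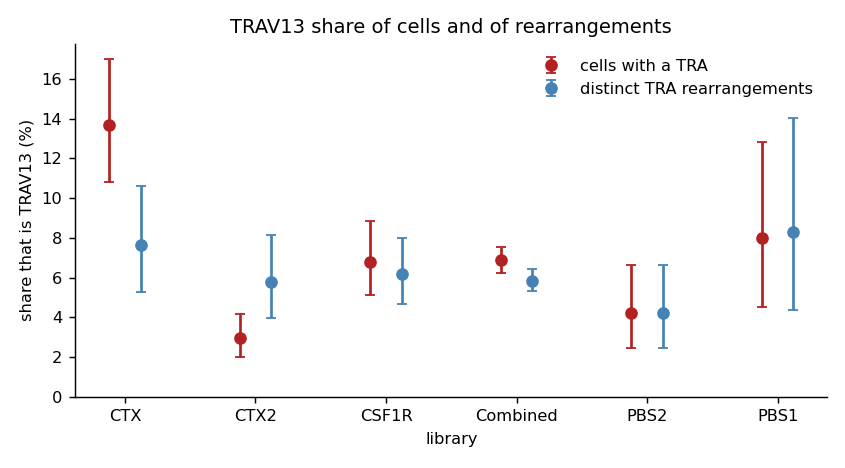
TRAV13 share (%) of cells with a TRA and of distinct TRA rearrangements in each library. The exact 95% intervals cover counting error only and treat cells of one clone as independent. The cell share reaches 13.7% in CTX, above its share of rearrangements of 7.64%, and is 2.97% in CTX2, below its 5.79%.

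A single copy, TRAV13-1, gave most of the family. It had 308 of the 555 rearrangements and averaged 58.0% ± 8.02 of the family over the libraries (SD, n = 6), from 47.2% in CSF1R to 71.9% in CTX. TRAV13D-2 followed with 152 rearrangements and 23.6% ± 8.29, and TRAV13-2 with 55 and 10.6% ± 4.22. These copies were found in all 6 libraries. The other 5 were rare, with 15 rearrangements of TRAV13N-4, 9 of TRAV13N-3, 8 of TRAV13D-3, 5 of TRAV13D-1 and 3 of TRAV13D-4. The D and N copies together held 192 rearrangements, 31.4% ± 8.92 of the family (SD, n = 6), with a low of 21.9% in CTX and a high of 47.2% in CSF1R.

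By RefSeq's annotation of assembly GRCm38.p6, which comes from C57BL/6J mice, all 8 copies lie on chromosome 14 upstream of the J segments. TRAV13D-2 lies at chr14:52942764-52943289, in the D block farthest upstream, and the N copies follow. TRAV13-1 is at chr14:53545014-53545525 and TRAV13-2 at chr14:53634888-53635399, nearer to the J segments, the first of which starts at position 54157280. TRAV13-4-DV7, left out of the family here, is closer still, at chr14:53757410-53757921, and had 49 rearrangements.

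**Figure D2:**
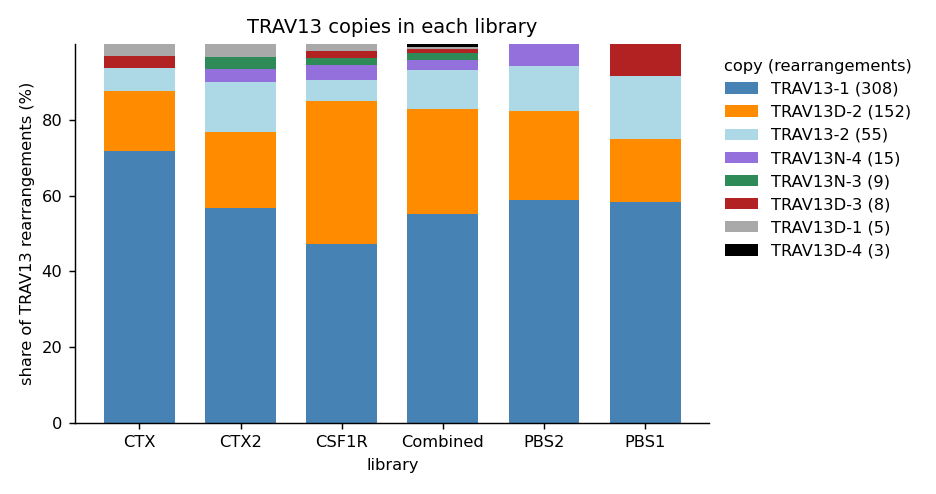
Share (%) of TRAV13 rearrangements by gene copy in each library, with the number of rearrangements of each copy over the 6 libraries in the legend. TRAV13-1 is the largest piece in each of the 6 libraries, with 47.2% in CSF1R and 71.9% in CTX.

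The copies differed in the first CDR3 codons, which the end of the V segment encodes in part. The third codon was ATG in 223 of 308 TRAV13-1 rearrangements and ATA in 9. In TRAV13D-2 it was ATG in 6 of 152 and ATA in 98, and in TRAV13-2 it was ATG in 4 of 55 and ATA in 35. TRAV13D-3 had ATG in 8 of 8. The most common opening of TRAV13-1 was tgtgctATGGAA, read as CAME, in 111 rearrangements. TRAV13D-2 and TRAV13-2 shared tgtgctATAGAT, read as CAID, as their most common opening, in 45 and 15 rearrangements. Both openings put an acidic residue at the fourth position of the CDR3. Aspartate or glutamate stood there in 50.6% ± 7.63 of TRAV13 rearrangements and 8.34% ± 1.15 of the other TRA rearrangements (SD, n = 6 each), values that the choice by V gene sets in part and that were not tested.

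Copy names were not always certain. The same CDR3 nucleotide sequence carried 2 TRAV13 copy names within a library in 9 cases, 8 of them naming TRAV13-1 beside a D or N copy. In 4 of the 9 both names stood in 1 cell, in 1 in cells with the same beta chain, and in 4 in cells with different beta chains. The copies are close relatives, and the values of single copies carry this uncertainty.

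TRAJ segments are numbered from the constant gene outward, so TRAJ58 lies nearest the V segments and TRAJ2 farthest downstream, and in the reference the number fell along the chromosome over all 43 TRAJ genes used. The D and N copies were joined to higher-numbered, more upstream J segments than the copies with no letter in each of the 6 libraries as counted here, but in CTX and PBS1 the order depended on which contigs were used. The mean TRAJ number of the D and N copies was 38.4 in CTX, 38.2 in CTX2, 42.0 in CSF1R, 40.3 in Combined, 40.8 in PBS2 and 35.0 in PBS1. The copies with no letter averaged 37.3 in CTX, 30.9 in CTX2, 30.04 in CSF1R, 34.1 in Combined, 28.4 in PBS2 and 32.9 in PBS1. The gap was widest in PBS2 and narrowest in CTX, where 7 D and N rearrangements stood against 25 with no letter. The difference averaged 6.85 ± 4.75 (SD, n = 6; two-sided exact sign-flip permutation p = 0.03125, the smallest possible with 6 libraries). After Benjamini-Hochberg adjustment over the 8 measures compared within libraries the exact permutation p was 0.0833. None of the 8 passed 0.05, while 3 were below it unadjusted. With 6 libraries an adjusted p below 0.05 would have needed most of the 8 measures to reach the smallest possible p, so not passing says little. The mean difference was 6.89 in the 4 numbered libraries, CTX, CSF1R, PBS2 and PBS1, which were tied to their records by a number. It was 6.75 in the 2 JR libraries, CTX2 and Combined, whose record titles start with JR. The difference was negative in CTX with high-confidence contigs only (-0.49), without possible doublets (-1.48) and with copies collapsed, that is with a CDR3 under more than one copy name counted once (-0.49), each with an exact sign-flip permutation p of 0.0625 (n = 6). With each cell counted once it was negative in PBS1 (-3.42, exact sign-flip permutation p = 0.09375, n = 6), and with at least 3 UMIs in both CTX (-3.74) and PBS1 (-1.39; exact sign-flip permutation p = 0.125, n = 6). Under these alternatives the mean difference was 5.60 to 7.21, and CSF1R, Combined, CTX2 and PBS2 stayed positive. Set against each other alone, TRAV13D-2 had the higher TRAJ number than TRAV13-1 in 5 of 6 libraries but not in CTX (35.6 against 39.0), a comparison chosen after seeing the data, with a mean of 9.03 ± 6.64 (two-sided exact sign-flip permutation p = 0.0625, n = 6, adjusted p = 0.167).

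Pooled over the libraries, the split between copies lay at both ends of the J region. The pooled values rest mostly on Combined, which held 115 of the TRAV13D-2, 42 of the TRAV13-2 and 226 of the TRAV13-1 rearrangements. Of the 152 TRAV13D-2 rearrangements 43.4% used TRAJ58 to TRAJ47 and 6.58% used TRAJ18 to TRAJ2. For the 55 TRAV13-2 rearrangements the shares were 9.09% and 36.4%, and for the 308 TRAV13-1 rearrangements 30.5% and 20.8%. The mean TRAJ number was 41.9 ± 12.2 for TRAV13D-2, 34.7 ± 15.1 for TRAV13-1 and 27.5 ± 14.3 for TRAV13-2 (SD over rearrangements). TRAV13-4-DV7, nearest to the J segments in the reference, had 44.5 ± 11.6. In the order of the reference the mean TRAJ number thus did not run one way from the farthest to the nearest of these 4 genes.

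The family as a whole did not stand apart in J position. Its mean TRAJ number was 34.7 ± 2.14 against 35.4 ± 1.01 in the other TRA rearrangements (SD, n = 6 each), a difference of -0.71 ± 2.16 (two-sided exact sign-flip permutation p = 0.5, adjusted p = 0.643), positive in 4 libraries and negative in 2. Among single TRAV genes with at least 3 rearrangements in at least 4 libraries, 9 of 46 had a higher TRAJ number than all other TRA in each library counted, 19.6%, and 13 a lower one, 28.3%. Neither TRAV13-1, at -2.54 ± 4.39, nor TRAV13D-2, at 5.21 ± 3.13, was among these 22. TRAV13-4-DV7 was, with 11.0 ± 4.99 above the other TRA over the 4 libraries where it could be counted. With contigs of at least 3 UMIs only, 11 genes had the same sign throughout in place of 22.

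**Figure D3:**
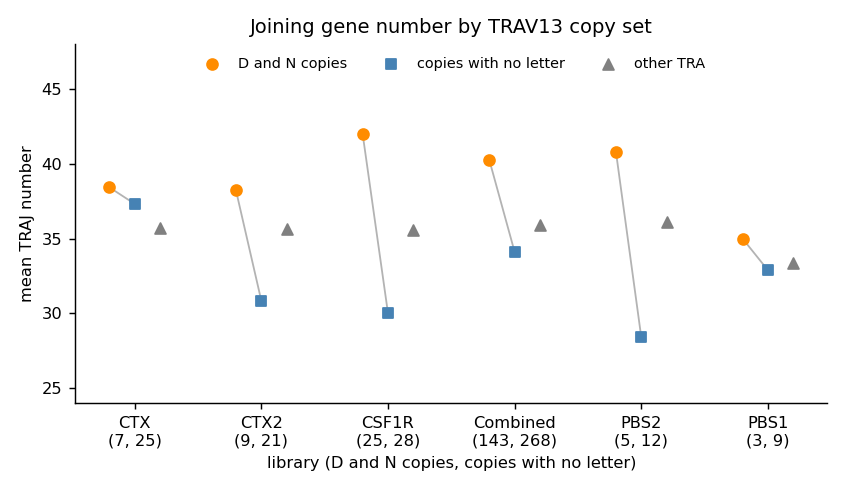
Mean TRAJ number of the D and N copies, of the copies with no letter and of the other TRA rearrangements in each library, with the numbers of rearrangements of both copy sets under the library names. Lines join the TRAV13 sets of a library, and the D and N copies lie above the copies with no letter in each of the 6, by 1.11 in CTX and 12.4 in PBS2. The axis starts above 0.

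No J gene dominated the family. By mean share over libraries the most used were TRAJ49 with 5.77% ± 3.87 of TRAV13 rearrangements against 3.88% ± 1.29 of the others, TRAJ37 with 5.26% ± 4.42 against 3.86% ± 2.18, and TRAJ26 with 5.19% ± 3.46 against 3.10% ± 0.716 (SD, n = 6 each). TRAJ52 had 5.12% ± 3.08 against 5.01% ± 0.525 and TRAJ32 had 4.73% ± 2.50 against 3.18% ± 0.367. None of these differed in one direction in all 6 libraries. The order holds for the mean only. By number TRAJ52 had the most, 31 rearrangements against 27 for TRAJ49, and in Combined it had 5.84% against 4.14%. TRAJ57, with a lower mean, had 25 rearrangements, as many as TRAJ37 and TRAJ26, and 5.35% in Combined. Of 43 TRAJ genes 0 were higher in TRAV13 in 6 of 6 libraries, 0%, and 3 were lower, 6.98%. These were TRAJ16 with 3 TRAV13 rearrangements in all, TRAJ7 with 3 and TRAJ2 with 1, each of them seen with TRAV13 in Combined alone, so the sign in the other 5 libraries rests on a count of 0 among 12 to 53 rearrangements. The number of genes with one sign was 7 without CTX2, 5 without CSF1R and 5 without PBS1.

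TRAV13 CDR3 loops were shorter on average than those of other alpha chains in each of the 6 libraries, with possible doublets kept. The mean length was 13.2 amino acids in TRAV13 and 13.8 in the others in CTX, 13.1 and 13.7 in CTX2, 13.1 and 13.6 in CSF1R, and 13.1 and 13.6 in Combined. In PBS2 it was 13.3 and 13.7, and in PBS1 12.8 and 13.9. TRAV13 lay lower in each of the 6, and the highest TRAV13 mean lay below the lowest mean of the other TRA. The difference averaged -0.61 ± 0.23 amino acids (SD, n = 6; two-sided exact sign-flip permutation p = 0.03125, the smallest possible, adjusted p = 0.0833). Without possible doublets TRAV13 loops were longer in PBS2, by 0.21, and the mean difference was -0.50 ± 0.43 (two-sided exact sign-flip permutation p = 0.0625, n = 6). With doublets kept the difference was -0.62 in the 4 numbered libraries and -0.57 in the 2 JR libraries. Compared with other TRA rearrangements of the same TRAJ gene in the same library, an alternative chosen after seeing the data, it was -0.65 ± 0.31.

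Over all libraries, 29.9% of TRAV13 rearrangements had a CDR3 of 12 or fewer residues, against 19.1% of the others, and 13.3% had 15 or more, against 27.5%. The longer class was the rarer in TRAV13 in 5 of 6 libraries, the exception being PBS2 with 5 of 17. By copy, the mean length was 13.03 residues ± 1.45 in TRAV13-1, 13.3 ± 1.52 in TRAV13D-2 and 13.1 ± 1.97 in TRAV13-2 (SD over rearrangements).

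**Figure D4:**
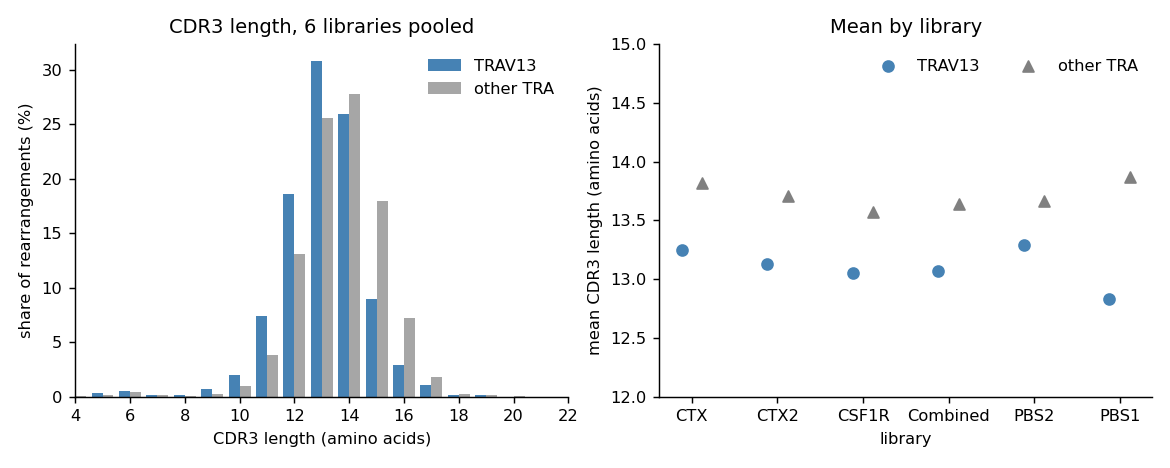
Left, share (%) of rearrangements by CDR3 length in amino acids for TRAV13 and other TRA, pooled over 6 libraries. Right, mean length in each library, on an axis that starts above 0; the TRAV13 means lie between 12.8 and 13.3 and those of the other TRA between 13.6 and 13.9.

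TRAV13 made up a larger mean share of nonproductive than of productive rearrangements, with a direction that in CTX and CSF1R depended on the contigs used. A nonproductive alpha rearrangement is one with no readable frame through its junction, or a contig without a complete one; it can be kept on the second allele of a T cell. Among productive rearrangements the family averaged 6.32% ± 1.45 and among nonproductive ones 13.5% ± 5.89 (SD, n = 6 each). By library the productive and nonproductive shares were 7.64% and 9.36% in CTX, 5.79% and 25.0% in CTX2, 6.18% and 9.49% in CSF1R, 5.84% and 11.6% in Combined, 4.21% and 14.1% in PBS2, and 8.28% and 11.4% in PBS1. The productive share was the lower one in 6 of 6, with a mean difference of -7.17 points ± 6.56 (SD; two-sided exact sign-flip permutation p = 0.03125, n = 6, adjusted p = 0.0833). The mean difference was -4.51 points in the 4 numbered libraries and -12.5 in the 2 JR libraries. Without CTX2 it was -4.77 points. In CTX the productive share was the higher one with high-confidence contigs only (by 0.42 points, exact sign-flip permutation p = 0.0625 over the 6 libraries) and with each cell counted once (by 3.14, exact permutation p = 0.0625). With at least 3 UMIs it was higher in CTX, by 4.21 points, and in CSF1R, by 1.83 (exact sign-flip permutation p = 0.125, n = 6).

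The value of CTX2 rested largely on a single rearrangement. TRAV13N-3 with TRAJ53, nonproductive, was found in 70 cells of CTX2, and since 1 of its 70 contigs had a called CDR3 and the others were told apart by length, it was counted as 45 of the 71 nonproductive TRAV13 rearrangements there. All 70 cells also held the beta chain TRBV4 with TRBJ2-7, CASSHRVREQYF, which 119 cells of the library carried, and 65 of them the productive alpha chain TRAV7D-4 with TRAJ49, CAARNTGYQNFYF. Counting each nonproductive pair of V and J gene once per library, chosen after seeing this, gave 14.6% in CTX2. The productive side was still counted by V gene and CDR3 sequence, so the units of the 2 sides differ. The mean difference was then -6.36 ± 3.51 points, with the productive share lower in 6 of 6. With the contigs that had a called CDR3 and were marked nonproductive, also chosen afterwards, the difference was -4.69 ± 5.45 (two-sided exact sign-flip permutation p = 0.0938, n = 6, adjusted p = 0.25), and in CSF1R the productive share was the higher one, 6.18% against 3.92%. Of 326 nonproductive TRAV13 contigs 265 had no CDR3. Pooled over libraries, the copies differed. TRAV13-1 had 80 of 2288 nonproductive and 308 of 9383 productive TRA rearrangements. TRAV13D-2 had 66 nonproductive and 152 productive ones, and TRAV13-2 had 23 and 55. The rare copies had more nonproductive ones: TRAV13N-3 58 and 9, TRAV13N-4 28 and 15, TRAV13D-4 23 and 3, TRAV13D-3 12 and 8, TRAV13D-1 7 and 5. The 58 include the 45 from CTX2.

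**Figure D5:**
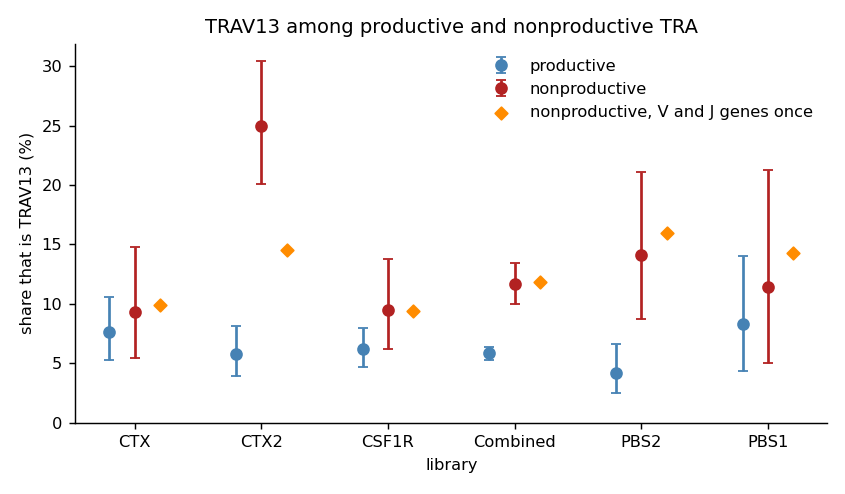
TRAV13 share (%) of productive and of nonproductive TRA rearrangements in each library, with exact 95% intervals for counting error, and of nonproductive V and J gene pairs counted once. Productive rearrangements are counted by V gene and CDR3 sequence only. The productive share is the lowest of the values shown in each library, and the nonproductive share of CTX2, 25.0%, is 14.6% when V and J pairs are counted once.

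TRAV13 chains were paired with many beta chains. Each rearrangement was given the TRBV gene of its cell's most abundant beta chain. By mean share over libraries TRBV19 came first, with 14.5% ± 3.00 of TRAV13 rearrangements against 10.5% ± 2.29 of the others (SD, n = 6 each). TRBV13-1 followed with 10.5% ± 8.15 against 10.7% ± 1.73, TRBV13-3 with 10.2% ± 4.72 against 7.72% ± 2.08, TRBV14 with 9.99% ± 8.001 against 3.49% ± 0.944, and TRBV5 with 9.62% ± 3.99 against 9.11% ± 2.12. The order holds for that mean only. By number TRBV13-2 had the most, 74 rearrangements against 69 for TRBV19, and it led in Combined with 16.2%, although its mean was 9.54% ± 5.06 against 15.5% ± 1.79 of the others. TRBV19 was highest in CTX alone, while TRBV1 led in CTX2 and CSF1R, TRBV13-1 in PBS2 and TRBV14 in PBS1. The TRBV14 value was 25.0% in PBS1, where it stood for 3 of 12 rearrangements, and 2.78% of the 395 rearrangements with a beta chain in Combined. Of 22 TRBV genes 0 were higher in 6 of 6 libraries, 0%, and 0 lower, 0%. Single genes had one sign throughout when a library was left out, 3 of them without Combined, 2 without PBS1 and 1 without CTX2. The TRBV13 genes together were the partner of 30.2% ± 14.8 of TRAV13 rearrangements against 33.9% ± 4.66 of the others, a difference of -3.66 points ± 14.1 (two-sided exact sign-flip permutation p = 0.5625, n = 6, adjusted p = 0.643). It was -8.65 points without PBS2, where TRAV13 stood 21.3 points higher, and -0.514 without CTX2.

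Most TRAV13 rearrangements were seen in 1 cell, 538 of 555, and 17 in at least 2. The largest was TRAV13D-2 with TRAJ40 in CTX, CDR3 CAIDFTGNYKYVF, in 28 cells, 5.56% of the cells with a TRA there (exact 95% interval 3.72 to 7.93). Of these cells 18 had a beta chain, and all 18 had TRBV19 with TRBJ2-5, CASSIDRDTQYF. No other productive alpha chain was found in the 28 cells. TRAV13D-2 with TRAJ30 in CTX, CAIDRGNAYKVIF, was in 2 cells, both with the same TRBV13-3 chain, and was tied with 2 others there. PBS1 had 1 repeated rearrangement, TRAV13-2 with TRAJ21, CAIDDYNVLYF, in 4 cells, of which 3 had the same TRBV14 chain. CTX2 had 3, each in 2 cells: TRAV13-1 with TRAJ39 and with TRAJ17, and TRAV13-2 with TRAJ33. CSF1R and PBS2 had none among 53 and 17 rearrangements.

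Combined had 8 repeated rearrangements and none larger than TRAV13-1 with TRAJ57, whose 3 cells shared TRBV13-2 with TRBJ2-3, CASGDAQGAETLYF. The other 7 were tied at 2 cells each, and TRAV13D-2 with TRAJ42 and TRAV13-1 with TRAJ17 had the most UMIs among them. Of its repeated sequences 5 stood in cells whose beta chains differed in nucleotide sequence, as did 1 in CTX, the TRAV13D-2 chain with TRAJ42, with 8 cells of one beta chain and 1 of another. Over all libraries 8 of the 17 repeated rearrangements had a single beta chain, 6 had several and 3 had fewer than 2 cells with a beta chain. Rearrangements in at least 2 cells were 5.98% ± 6.36 of TRAV13 and 6.81% ± 4.61 of the other TRA (SD, n = 6 each; two-sided exact sign-flip permutation p = 0.5625, adjusted p = 0.643). TRAV13 was lower in 5 of 6 libraries and higher in CTX, by 5.03 points. The mean difference of -0.825 points was -1.996 without CTX, -0.0593 without PBS2 and -9.42 with each cell counted once.

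The second CTX rearrangement, TRAV13D-2 with TRAJ42 in 9 cells, was found beside another alpha chain. Of its cells 8 carried TRBV13-2 with TRBJ2-5, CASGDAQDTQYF, and 7 carried TRAV12D-2 with TRAJ39, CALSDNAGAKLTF. In CTX 8 of the 8 cells with that beta chain had this TRAV13D-2 chain and 6 had the TRAV12D-2 one. The same beta amino acid sequence was found in 28 cells of PBS2, of which 25 had a productive alpha chain. All 25 had the same TRAV12 CDR3, and no TRAV13 contig was found in them. Cells of one clone are not independent and a chain can be missed, so this sets no limit on the chain's presence. The TRAV12 CDR3 had the same nucleotides in both libraries, and was also in 5 cells of CTX2 and 1 of Combined, while the beta chains differed at 2 bases, in capitals here.
TRBV13-2 with TRBJ2-5 in CTX: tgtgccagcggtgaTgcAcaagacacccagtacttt
TRBV13-2 with TRBJ2-5 in PBS2: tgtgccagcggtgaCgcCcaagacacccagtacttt
The libraries CTX and PBS2 shared 0 cell barcodes. This pair was followed up after its values were seen.

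For second alpha chains each distinct alpha CDR3 of a cell was counted, so a cell with several could enter more than once. A second productive alpha chain stood beside 28.8% ± 14.7 of TRAV13 chains and 25.9% ± 3.35 of other TRA chains (SD, n = 6 each). These are shares of chains and not of cells. The difference was 2.89 points ± 16.2 (two-sided exact sign-flip permutation p = 0.75, adjusted p = 0.75). PBS2 was highest, at 52.9% of its 17 TRAV13 cells, and without it the difference was -2.67 points. Each cell of a clone was counted here. In CTX the difference was -13.2 points, and 28 of its 69 TRAV13 chains were the TRAJ40 clone, in which no other alpha chain was found. Without CTX the mean difference was 6.11 points. TRAV13 contigs had a median of 3 to 10 UMIs by library, on average 5.67 ± 2.66 against 4.0 ± 1.26 in the others, at least as many in each of the 6 libraries (two-sided exact sign-flip permutation p = 0.125, n = 6, adjusted p = 0.25). These medians also count each cell of a clone, and in CTX 37 of the 69 TRAV13 cells belonged to 2 rearrangements.

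No TRAV13 CDR3 amino acid sequence was found in 3 or more libraries. Of 523 distinct ones 16 were found in 2, and 15 of these included Combined, which held most rearrangements. At the nucleotide level 10 of 536 were shared by 2 libraries, and in 0 of the 10 did the cells share a barcode, though 50 cell barcodes occurred in more than one library. The sequence of TRAV13-1 with TRAJ22 shown above, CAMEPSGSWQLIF, was in 3 cells of CTX2 and Combined, with TRBV13-1 and TRBV16 as partners. Others were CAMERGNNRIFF of TRAV13-1 with TRAJ31 in CSF1R and Combined, and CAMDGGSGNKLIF of TRAV13-1 with TRAJ32 in CTX and CTX2.

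TRAV13 joined to TRAJ50 is known as the alpha chain of a CD1d-restricted NKT population named for the older gene name Vα10. There were 19 such rearrangements, 3.42% of the family when pooled against 4.07% TRAJ50 in the other TRA, while the means over libraries stood the other way, 4.18% ± 2.94 against 3.64% ± 1.02 (SD, n = 6 each). TRAJ50 was higher in TRAV13 in CTX, CTX2 and PBS1 and lower in CSF1R, Combined and PBS2. There were 13 in Combined, 2 each in CTX2 and CSF1R, 1 each in CTX and PBS1 and 0 in PBS2. They had 18 different CDR3 sequences of 13 to 17 residues, and 18 of the 19 were in 1 cell. Of 17 with a beta chain 6 had a TRBV13 gene. By mean over libraries TRBV13 genes were the partner of 30.2% of all TRAV13 and 33.9% of other TRA rearrangements, so the count does not stand out. In no cell with a TRAV13 chain was TRAV11 with TRAJ18 or TRAV1 with TRAJ33 detected, the alpha chains of type I NKT and MAIT cells, in 601 cells in which a second alpha chain may have been missed.

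Among the other 19 TRAV families, the 3 whose share followed that of TRAV13 most closely over the 6 libraries were TRAV16 (Pearson r = 0.762, Spearman rho = 0.714), TRAV1 (r = 0.708, rho = 0.714) and TRAV3 (r = 0.532, rho = 0.714). Without the 2 libraries farthest from the median TRAV13 share r was 0.669, 0.631 and 0.370 for these families in that order. The families were picked as the highest of 19, shares of one library are bound to each other, and no p is given. By J gene use, the nearest were TRAV16, TRAV9 and TRAV6, for which 24.9%, 25.0% and 25.1% of rearrangements would have to change J gene to match the mean TRAV13 use. These means weigh all libraries alike, PBS1 with 12 TRAV13 rearrangements included. Small families tended to lie farther away, such as TRAV11 with 43 rearrangements at 74.5%. How far family size sets this distance was not tested.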

How the data were processed

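The deposited contig table lists assembled contigs with raw read counts and UMI counts, the chain, its gene segments and CDR3, and whether a cell was called and the contig productive. Per the submitters' processing notes, Cell Ranger 3.0.2 and the builds mm10 and GRCm38 were used. Among its 11 library names, 5 had no match in the labels and were left out. The other 6 had 31178451 to 83903661 reads and 6807 to 121305 UMIs, and 245 to 7629 called cells.

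Contigs were used as deposited, doublets kept. Exact 95% intervals (Clopper-Pearson) are for counting error alone and, where cells are counted, treat cells of one clone as independent. Differences within libraries were tested by an exact sign-flip permutation over libraries, with Benjamini-Hochberg adjustment over 8 measures, and treated against untreated by an exact permutation test. Genes were called where the difference had the same sign in all libraries counted. The measures were run on simulated data with known answers, at a tolerance too wide to check the p-values or the CDR3 length difference.

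The family, lists and tests were chosen with earlier results of these data known. Genes named are all copies, the 5 TRAJ and 5 TRBV genes with the largest mean share, those with one sign in 6 of 6 libraries, the 3 largest repeated rearrangements per library and the TRAV families most alike. Exceptions are marked. Gene positions are from RefSeq, in which all 8 copies matched. Software was scipy 1.17.1 and pandas 2.3.3 under Python 3.11.15.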

Additional observations from a re-analysis of the deposited data

Results flagged for a closer look

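In groups of 4 to 6 libraries, a value was marked where its gap to the next was large for the group's range, which chance alone marks in about 5% of groups; 6 marks came from 38 groups. The largest TRAV13 rearrangement of CTX, with 28 cells, stood apart both from the other treated libraries and from all libraries. The nonproductive TRAV13 share of CTX2, 25.0%, did so as well, both times. The difference in mean CDR3 length between TRAV13 and other TRA stood apart in PBS1 among the 6 libraries, at -1.04 amino acids, and in CSF1R among the 4 treated ones, at -0.52. Outside the called cells the table held 56 productive TRAV13 contigs, 5.54% of 1011 productive TRA contigs there, and 22 of the 56 had a CDR3 nucleotide sequence that was also seen in a called cell of the same library.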

How the results depend on the processing

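No paired analysis was possible because the labels give the libraries no shared replicate numbers. Of 142 alternative values of the tested differences 139 kept their direction. Only 57 came from fits that could pass 0.05 before adjustment. The others, with fewer libraries, and the family share could not, so their not passing says nothing about their stability. Of the 57, 0 passed after adjustment, which would have needed most of the 8 measures to reach the smallest possible p. For the copy set, length and nonproductive differences some of the 57 lost the common sign in 6 libraries, with unadjusted exact permutation p up to 0.125. The family share changed sign with PBS2 counted as untreated, to 0.121 points, and the expanded share with clones defined by TRB, to 0.808 points. Genes of one sign numbered 11 of TRAV with at least 3 UMIs, and 1 of TRBV with each cell counted once and 1 with the DV-named gene included. With each library left out in turn, the second alpha chain difference ran from -2.67 to 6.11 points, the TRAJ genes of one sign from 3 to 7 and the TRBV genes from 0 to 3. The length difference ran from -0.65 to -0.52 amino acids, the copy set difference from 5.74 to 7.99 and the productive minus nonproductive share from -8.27 to -4.77 points. The cause of these changes was not tested. Depth limits PBS1 and PBS2 most, with 12 and 17 TRAV13 rearrangements.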

Other observations

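Of 601 TRAV13 cells 3 carried 2 different TRAV13 CDR3 sequences. A last CDR3 residue other than phenylalanine or tryptophan, the residues that usually close an alpha chain CDR3, was found in 18 TRAV13 rearrangements, 3.24%, against 3.25% of the other TRA rearrangements.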
